A study of Mus musculus with 8 samples.

Results

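The muscle regeneration and denervation genes examined here were 10 of the 18540 genes in a count table of mouse wound skin. They were taken by gene symbol, without use of their values, as Pax7, Myf5, Myod1, Myog, Myf6, Mymk, Myh3, Myh8, Chrna1 and Chrng. All 10 passed the low-count filter, which kept 15147 genes in all.

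RNA of wound skin was sequenced for a control group injected with PBS (4 samples) and for a group injected with Z1C2Z (4 samples), a composite of zinc peroxide and cerium oxide particles in the zeolitic framework ZIF-8 with the higher ratio of cerium oxide. The titles mark the injected group only by a code, and the sequencing methods name the composite without its ratio. The ratio was read from the sample numbers of the heat map, so it is less certain than the grouping. Full-thickness wounds, 10 mm across and a pair on each back, were injected around their edge every 7 days at 100 μg/kg, and skin was taken after 15 days of treatment. The methods describe wounds in C57BL mice 6 weeks old and in diabetic db/db mice 10 weeks old, which lack a working leptin receptor, and neither they nor the labels say which mice were sequenced or which libraries share a mouse. The p-values therefore measure the spread between these libraries, which may in part be technical. The libraries carry the numbers of their titles, control-1, -2, -3 and -5 and Z1C2Z-1, -2, -4 and -5, and a number has no order.

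Skeletal muscle is rebuilt by satellite cells, which carry Pax7, enter the muscle lineage through Myf5 and Myod1, and then switch on Myog and the fusion protein Mymk to form new fibres. New fibres make the embryonic and perinatal myosins Myh3 and Myh8 before the adult myosins, and they make the fetal form of the acetylcholine receptor, with the gamma subunit Chrng in place of the adult epsilon subunit Chrne. The same receptor genes rise again along the whole fibre when a muscle loses its nerve. In mouse back skin a thin sheet of skeletal muscle, the panniculus carnosus, lies under the dermis and is cut by a full-thickness wound.

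Between 28856790 and 38974888 reads were counted on genes per library. The leading principal component of log2 CPM took 62.2% of the variance, with Z1C2Z-2 and Z1C2Z-4 at its far end. Skin was present in every library: the summed level of Krt5, Krt14, Col1a1 and Col3a1 was 38429 to 59002 CPM (counts over the library total, scaled by the TMM method throughout) in the control group and 31348 to 44456 CPM in the Z1C2Z group. Skeletal muscle was present too. The summed level of 20 adult skeletal muscle genes was 5118 to 9771 CPM in the control group, highest in control-1, and 4423 to 5024 CPM in the Z1C2Z group, so that the ranges of the sum did not overlap. The mean log2 level of the same genes, which gives each gene equal weight, was 7.53 to 8.53 and 7.35 to 7.54 and overlapped slightly. In bulk RNA, fewer muscle cells and less muscle RNA per cell cannot be told apart.

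Compared with the control group, Myog, Mymk and Chrna1 were lower in the Z1C2Z group, and none of the other 7 genes passed the adjusted threshold. Their log2 fold changes were −0.76 for Myog, −0.74 for Mymk and −1.04 for Chrna1. Chrng and Myf6, at −1.24 and −1.02, narrowly missed the threshold in edgeR's quasi-likelihood test (adjusted p of 0.0578 and 0.0562). Myod1, the determination factor, had about the same level in both groups, at −0.12. All 10 log2 fold changes were under 0, with a median of −0.75, whereas 48.9% of all tested genes were under 0 and their median was 0.01.

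Of the 10 genes, 3 were called lower, against 3.85% of all tested genes, and 0 were called higher, against 4.28% of all tested genes (edgeR, adjusted p under 0.05). At an unadjusted p under 0.05 the count was 8 of 10, all lower, against 15.2% of all tested genes in that direction and 28.0% in either direction. DESeq2 called 7 of the 10, all of them lower, where it called 10.2% of all genes lower. The groups did not overlap, with every Z1C2Z library under every control library, for 5 of the 10: Pax7, Myog, Mymk, Chrna1 and Chrng. Among all tested genes 8.82% were apart in that direction and 8.45% in the other. Pax7 passed the low-count filter only through the control group, where it was higher. Without it, 3 of 9 genes were called, 7 of 9 had an unadjusted p under 0.05, 4 of 9 did not overlap, and the median was −0.74.

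When any of the controls numbered 1, 2 or 5, or of the Z1C2Z libraries numbered 1, 2 or 4, was left out, edgeR called 0 of the 10 genes, and when control-3 or Z1C2Z-5 was left out it called 2. These were Chrna1 and Myf6 without control-3, and Chrna1 and Myog without Z1C2Z-5. Among all genes, 656 were called higher and 868 lower without control-1, and 25 and 98 without control-2. The counts were 541 and 464 without control-3, and 886 and 859 without Z1C2Z-5. With all 8 libraries they were 648 and 583. Leaving out control-5, or any of the Z1C2Z libraries numbered 1, 2 or 4, left 0 calls among all genes, so the calls of the further genes named here rested on these libraries too. In those fits 3100 to 4208 genes had an unadjusted p under 0.05. With Z1C2Z-2 and Z1C2Z-4 left out together 0 were called, and the median log2 fold change of the 10 genes was −0.71.

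**Figure D1:**
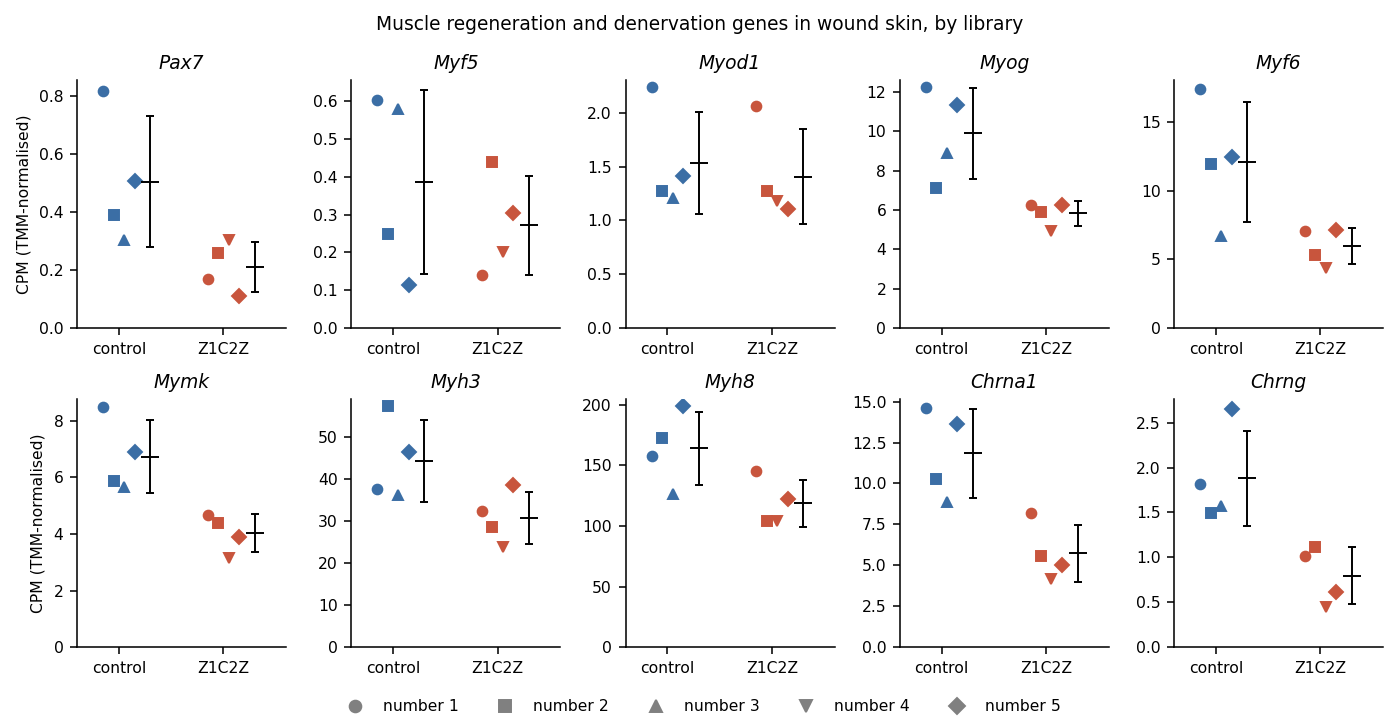
TMM-normalised level in CPM (vertical axes, each starting at 0) of each of the 10 genes in the 4 control (blue) and 4 Z1C2Z (red) libraries, with marker shapes giving the library number and black bars the mean ± SD. The groups stand apart for Pax7, Myog, Mymk, Chrna1 and Chrng, while Myod1 reaches 2.24 CPM in control-1 and 2.06 CPM in Z1C2Z-1 and lies between 1.11 and 1.41 CPM in the other libraries.

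By gene symbol, 7 of the 10 genes matched RefSeq's promoter table for GRCm38.p6, which has 300 bases around each annotated start. Myod1, Myf6 and Mymk had no entry in it. The myogenic factors Myf5, Myod1, Myog and Myf6 bind the E-box, whose letters are CANNTG with N for any base. It reads the same on both strands. The windows of Myog, Chrna1 and Chrng are shown because Myog and Chrna1 were called and Chrng had the fold change farthest from 0. Chrna1 and Chrng held the form CAGCTG, which is contained in CANNTG. Capitals mark CANNTG.
Myog, chr1:134289754-134290053, plus strand: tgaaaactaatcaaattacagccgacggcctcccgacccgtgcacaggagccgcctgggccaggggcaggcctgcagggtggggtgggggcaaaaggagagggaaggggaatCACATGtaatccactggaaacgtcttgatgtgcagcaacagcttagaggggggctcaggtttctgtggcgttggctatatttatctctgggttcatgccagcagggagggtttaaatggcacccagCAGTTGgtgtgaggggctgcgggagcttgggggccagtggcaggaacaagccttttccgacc
Chrna1, chr2:73580289-73580588, minus strand: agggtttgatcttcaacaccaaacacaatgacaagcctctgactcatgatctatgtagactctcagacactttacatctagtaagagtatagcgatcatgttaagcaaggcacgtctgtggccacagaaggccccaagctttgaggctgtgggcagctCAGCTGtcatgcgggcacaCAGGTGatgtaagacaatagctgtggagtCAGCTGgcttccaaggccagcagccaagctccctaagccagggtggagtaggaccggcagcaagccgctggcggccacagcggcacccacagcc
Chrng, chr1:87205561-87205860, plus strand: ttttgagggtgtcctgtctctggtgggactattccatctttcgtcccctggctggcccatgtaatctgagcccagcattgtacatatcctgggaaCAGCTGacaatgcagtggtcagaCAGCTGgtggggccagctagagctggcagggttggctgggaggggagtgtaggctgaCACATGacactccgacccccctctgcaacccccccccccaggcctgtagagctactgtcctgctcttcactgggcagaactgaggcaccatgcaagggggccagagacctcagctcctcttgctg
Counted from the annotated start as 0, the E-boxes of Myog began at −138 and −12, those of Chrna1 at −92, −73 and −44 and those of Chrng at −155, −132 and −75. CANNTG occurred in 5 of the 7 matched windows and in 72.3% of all 32851 promoter windows, and 3 or more copies in 2 of the 7 and in 17.6% of all. CAGCTG occurred in 2 of the 7 and in 16.3% of all. A match of these letters is a description of the window and not a binding site. The build behind the deposited counts is not given in the sources used here.

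Pax7, the transcription factor that marks satellite cells, was near the limit of detection. Its counts were 23, 14, 11 and 18 in control-1, -2, -3 and -5 and 6, 10, 12 and 4 in Z1C2Z-1, -2, -4 and -5. Only control-1 stood well above the rest, and after scaling control-3 (0.303 CPM) and Z1C2Z-4 (0.301 CPM) lay next to each other. The level was 0.504 ± 0.225 CPM in the control group and 0.210 ± 0.0861 CPM in the Z1C2Z group (SD, n = 4 each). The log2 fold change of −1.22 (SE 0.45) did not pass the threshold (edgeR, adjusted p = 0.115).

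Myf5, an early determination factor, was also low and showed no order by group. The counts were 17, 9, 21 and 4 in the control libraries and 5, 17, 8 and 11 in the Z1C2Z libraries. Its highest and its lowest library were both in the control group, and the log2 fold change was −0.48 (SE 0.57, edgeR adjusted p = 0.613).

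Myod1, the factor that commits cells to the muscle lineage, was similar in 6 of 8 libraries. It stood at 2.24, 1.28, 1.21 and 1.41 CPM in control-1, -2, -3 and -5, and at 2.06, 1.27, 1.18 and 1.11 CPM in Z1C2Z-1, -2, -4 and -5. The libraries numbered 1 were the highest of each group and the groups overlapped. The log2 fold change was −0.12 (SE 0.30, edgeR adjusted p = 0.819), and without control-1 it was 0.11.

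Myog, the factor that starts terminal differentiation, was lower in the Z1C2Z group. Its level was 12.2, 7.13, 8.90 and 11.3 CPM in the control libraries and 6.26, 5.91, 4.92 and 6.24 CPM in the Z1C2Z libraries. Control-2 was the lowest control library and still lay above all 4 Z1C2Z libraries. The means were 9.89 ± 2.32 and 5.83 ± 0.628 CPM (SD, n = 4 each), a 1.70-fold lower level (log2 fold change −0.76, SE 0.19, edgeR adjusted p = 0.0426).

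Myf6, a factor of the same family that is kept in mature fibres, showed more spread. It stood at 17.4, 11.9, 6.69 and 12.4 CPM in the control libraries and at 7.05, 5.34, 4.39 and 7.13 CPM in the Z1C2Z libraries. Control-3 fell below Z1C2Z-1 and Z1C2Z-5, so the groups overlapped. The log2 fold change of −1.02 (SE 0.28) did not pass the threshold with all libraries (edgeR, adjusted p = 0.0562) and passed it without control-3 (log2 fold change −1.21, adjusted p = 0.0325).

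Mymk, the membrane protein that fuses myoblasts, was lower in the Z1C2Z group. The level was 8.49, 5.88, 5.65 and 6.90 CPM in the control libraries and 4.68, 4.40, 3.14 and 3.91 CPM in the Z1C2Z libraries. Every control library was above every Z1C2Z library, with control-3 and Z1C2Z-1 nearest to each other. The means of 6.73 ± 1.29 and 4.03 ± 0.677 CPM (SD, n = 4 each) differed 1.67-fold (log2 fold change −0.74, SE 0.19, edgeR adjusted p = 0.0486). This call was near the threshold: without the low-count filter the adjusted p was 0.0533, and in the 8 fits that left out 1 library it ranged from 0.0528 to 0.127.

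The developmental myosins overlapped between the groups. Myh3, the embryonic heavy chain, stood at 37.6, 57.3, 36.2 and 46.4 CPM in the control libraries and at 32.3, 28.6, 23.8 and 38.6 CPM in the Z1C2Z libraries. Z1C2Z-5 was above control-1 and control-3. The log2 fold change was −0.53 (SE 0.19, edgeR adjusted p = 0.105).

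Myh8, the perinatal heavy chain, was the most abundant of the 10 genes. It stood at 158, 172, 127 and 199 CPM in the control libraries and at 145, 104, 104 and 122 CPM in the Z1C2Z libraries. Only Z1C2Z-1 reached into the control range, above control-3. The log2 fold change was −0.47 (SE 0.16, edgeR adjusted p = 0.0964). Of the 50-base windows of the Myh8 transcript in GENCODE M21, 21.4% occur in transcripts of other genes, most often Myh2, and for Myh3 this share was 4.81%, most often with Myh13. How the counting assigned such reads is not given in the sources used here, so the counts of these 2 myosins are less certain than those of Pax7, Myf5, Myod1, Myog, Myf6, Mymk and Chrng, which shared 0 windows. The same limit holds for Chrna1, which shared 3.02% of its windows, most often with Gm48735.

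Chrna1, the alpha subunit of the muscle acetylcholine receptor, which is part of its fetal and its adult form, had the smallest adjusted p of the 10. Its level was 14.6, 10.3, 8.87 and 13.6 CPM in the control libraries and 8.21, 5.54, 4.19 and 5.02 CPM in the Z1C2Z libraries. The groups did not overlap, though Z1C2Z-1 came close to control-3. The means were 11.8 ± 2.72 and 5.74 ± 1.74 CPM (SD, n = 4 each), a 2.06-fold lower level (log2 fold change −1.04, SE 0.24, edgeR adjusted p = 0.0374).

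Chrng, the gamma subunit found in fetal and denervated muscle, had 51, 54, 57 and 94 counts in the control libraries and 36, 43, 18 and 22 counts in the Z1C2Z libraries, or 1.88 ± 0.528 and 0.798 ± 0.317 CPM (SD, n = 4 each). All 4 Z1C2Z libraries were below the lowest control library, and control-5 was the highest. Its log2 fold change of −1.24 (SE 0.34) was the farthest from 0 of the 10 but missed the threshold (edgeR, adjusted p = 0.0578). The exact two-sided permutation p of 0.0286, the smallest that 4 against 4 allows, only restates that the groups did not overlap. Pax7, Myog, Mymk and Chrna1 had the same value, and 8.82% of all tested genes were apart in this direction.

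The adult epsilon subunit Chrne had 8, 19, 12 and 10 counts in the control libraries and 5, 3, 7 and 6 in the Z1C2Z libraries, too few for the low-count filter. Per kilobase of exon, Chrng was above Chrne in 8 of 8 libraries. The ratio of their levels was 1.65 to 5.46 in the control group and 1.49 to 8.33 in the Z1C2Z group. These ranges overlapped widely, and with 3 to 19 counts behind Chrne the ratio has a large counting error.

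Levels can be compared between genes only per length, and CPM per kilobase of merged exons in GENCODE M21 was used for this. In the control group the order of the means was Myh8 (20.9 ± 3.85), Myf6 (9.60 ± 3.47), Myh3 (7.33 ± 1.61), Myog (6.62 ± 1.55), Mymk (4.45 ± 0.856), Chrna1 (2.70 ± 0.619), Myod1 (0.824 ± 0.256), Chrng (0.677 ± 0.190), Myf5 (0.185 ± 0.117) and Pax7 (0.0860 ± 0.0384). The libraries of neighbouring genes overlapped for Myf6 with Myh3, Myh3 with Myog, Myog with Mymk, Myod1 with Chrng and Myf5 with Pax7, so across libraries these neighbours did not differ beyond their spread. Within libraries Myog was above Mymk in 8 of 8, Myh3 above Myog, Myod1 above Chrng and Myf5 above Pax7 in 7 of 8, and Myf6 above Myh3 in 3 of 8. In the Z1C2Z group Myh3 (5.09 ± 1.03) and Myf6 (4.73 ± 1.06) changed places within their spread, and the other 8 genes kept their rank. Myh8 was 2.31 to 3.45 times the level of Myh3 per kilobase in every library. Set against the adult myosin Myh1, Myh8 was at 12.3 to 19.0% and Myh3 at 3.66 to 7.56%, with control and Z1C2Z libraries mixed in both ranges.

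The genes around the 10 on the same pathway were read from lists of their roles, and 7 of the 8 that were called were lower in the Z1C2Z group. Among all tested genes 3.85% were called lower and 4.28% higher, which is the background for the count of each list below. In the satellite cell and myoblast list 9 of 10 genes, all but Calcr, passed the filter, with 1 called lower and 1 called higher. Cdh15, the cadherin of satellite cells and myoblasts, was the gene called lower, from 2.17 ± 0.442 to 0.741 ± 0.292 CPM (log2 fold change −1.55, SE 0.33, edgeR adjusted p = 0.0336). Heyl, a Notch target that is also made in vessel walls, was called higher, from 13.5 ± 1.26 to 20.3 ± 2.56 CPM (log2 fold change 0.59, SE 0.12, edgeR adjusted p = 0.0306). The groups did not overlap for either gene, as for 8.82% of all tested genes in the lower and 8.45% in the higher direction. Other abundant genes of this list did not pass, with log2 fold changes of −0.23 for Cdon, −0.55 for Itga7 and −0.68 for Six4.

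Of the 6 fusion and differentiation regulators, all tested, 2 were called lower and the median was −0.39. They were Smyd1, a methyltransferase that the sarcomere needs for its assembly, at 26.9 ± 7.45 and 14.6 ± 2.39 CPM (log2 fold change −0.88, edgeR adjusted p = 0.0362), and Rbm24, a muscle splicing factor, at 14.3 ± 2.86 and 8.57 ± 1.08 CPM (log2 fold change −0.74, edgeR adjusted p = 0.0349). Mymx, the partner of Mymk in fusion, had a log2 fold change of −0.41 and did not pass (edgeR, adjusted p = 0.318). The transcription factors Mef2a, Mef2c and Mef2d, which other cells make too, stood between −0.37 and −0.26 and did not pass. The embryonic sarcomere isoforms Myl4, Actc1 and Tnnt2 stood at −0.35, −0.53 and −0.43, with 0 of 3 called by edgeR and 2 of 3 at an unadjusted p under 0.05, a level that 28.0% of all tested genes reached.

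In the acetylcholine receptor and postsynaptic list 9 of 10 genes, all but Chrne, were tested, 1 was called lower and 0 higher, and the median was −0.37. The called gene was the beta subunit Chrnb1, at 7.46 ± 1.33 CPM in the control group and 4.64 ± 0.426 CPM in the Z1C2Z group (log2 fold change −0.69, SE 0.17, edgeR adjusted p = 0.0430). The delta subunit Chrnd, whose gene lies beside Chrng, stood at −0.97 with an adjusted p of 0.0502 in edgeR. Its groups did not overlap, as for 8.82% of all tested genes in that direction. Agrn and Lrp4, the nerve's signal and its receptor, which skin makes as well, stood at 0.19 and 0.23, Ache at −0.03, and the other 4 tested genes of the list between −0.91 and −0.04. None of these passed.

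The denervation response list had 9 of 10 genes tested, all but Dach2, 3 called lower and 0 higher, and a median of −0.19. Ncam1, an adhesion molecule spread over denervated fibres, fell from 53.8 ± 0.937 to 31.3 ± 5.93 CPM (log2 fold change −0.78, SE 0.13, edgeR adjusted p = 0.0299). Over the control libraries Ncam1 lay between 52.5 and 54.7 CPM, while the summed adult muscle level ran from 5118 to 9771 CPM. Which cells its RNA came from was not tested. Runx1, which denervated muscle switches on and which blood and hair cells make too, fell from 107.6 ± 6.96 to 62.2 ± 16.5 CPM (log2 fold change −0.79, edgeR adjusted p = 0.0356). Trim63, a ubiquitin ligase of muscle wasting, fell from 15.4 ± 4.50 to 7.64 ± 1.54 CPM (log2 fold change −1.01, edgeR adjusted p = 0.0378). Fbxo32, the other well-known ligase of muscle wasting, had the opposite sign at 0.52 and did not pass (edgeR, adjusted p = 0.0529). All its Z1C2Z libraries were above all its control libraries, as for 8.45% of all tested genes. Hdac4, Ampd3 and Gadd45a stood at −0.01, −0.19 and 0.22 and did not pass.

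**Figure D2:**
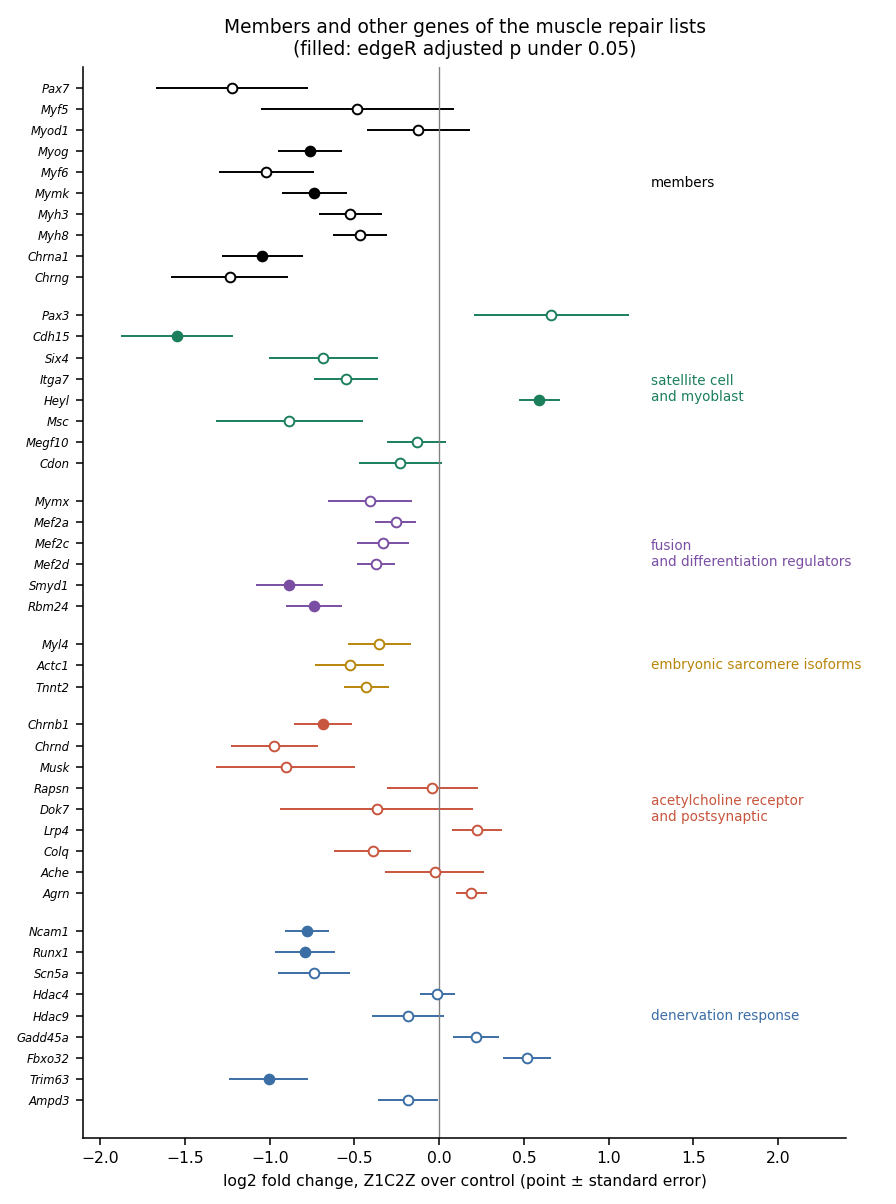
Log2 fold change of the Z1C2Z over the control group (horizontal axis, point ± standard error, edgeR, n = 4 libraries each) for the 10 genes, in black, and for the genes of 5 further lists that are reported here, in colours. Filled points have an adjusted p under 0.05, and all of them lie below 0 apart from Heyl at 0.59.

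The 4 most abundant genes of the adult skeletal muscle list were the actin Acta1, the fast myosins Myh1 and Myh4 and the light chain Myl1. All 20 genes of that list had log2 fold changes under 0, with a median of −0.58. By edgeR 4 of 20 were called lower and 0 higher, against 3.85% and 4.28% of all tested genes. Acta1 stood at 1077 ± 279 CPM in the control group and 593 ± 31.2 CPM in the Z1C2Z group (log2 fold change −0.86, edgeR adjusted p = 0.0303) and Myh1 at 894 ± 129 and 584 ± 74.5 CPM (log2 fold change −0.61, edgeR adjusted p = 0.0341). Myh4 and Myl1, at −0.45 and −0.45, did not pass.

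The level of each of the 10 genes was therefore set against the mean log2 level of the 20 adult genes in the same library. The mean log2 level of the adult genes itself differed by −0.54 (Z1C2Z minus control), so that the median over all tested genes on this scale was 0.55 higher. The groups overlapped for 9 of the 10 genes, whereas among all tested genes 32.9% were apart with the Z1C2Z group higher and 0.396% with it lower. The difference of the Z1C2Z from the control group, in log2 units, was −0.19 for Myog, −0.19 for Mymk, 0.02 for Myh3 and 0.07 for Myh8. For the low-count genes Myf5 and Pax7 it was 0.24 and −0.40. It was −0.42 for Myf6, −0.65 for Chrng and −0.51 for Chrna1, with exact two-sided permutation p values of 0.0857, 0.143 and 0.0571 over 70 arrangements of the libraries.

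Myod1 was the gene of the 10 whose groups did not overlap on this scale, and its difference was closest to that of genes at large. It stood at −7.31, −7.33, −7.14 and −7.36 in the control libraries and −6.43, −6.91, −7.07 and −7.08 in the Z1C2Z libraries, in log2 units relative to the adult genes. All 4 Z1C2Z libraries were above all 4 control libraries, with Z1C2Z-1 farthest. The difference was 0.42, below the median of 0.55 over all tested genes (exact two-sided permutation p = 0.0286, the smallest possible, unadjusted for the 10 genes compared in this way). Without Z1C2Z-1 it was 0.27 (exact permutation p = 0.0571), and without 1 control library it lay between 0.39 and 0.46. Without the division by the adult genes, the same difference was −0.12.

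**Figure D3:**
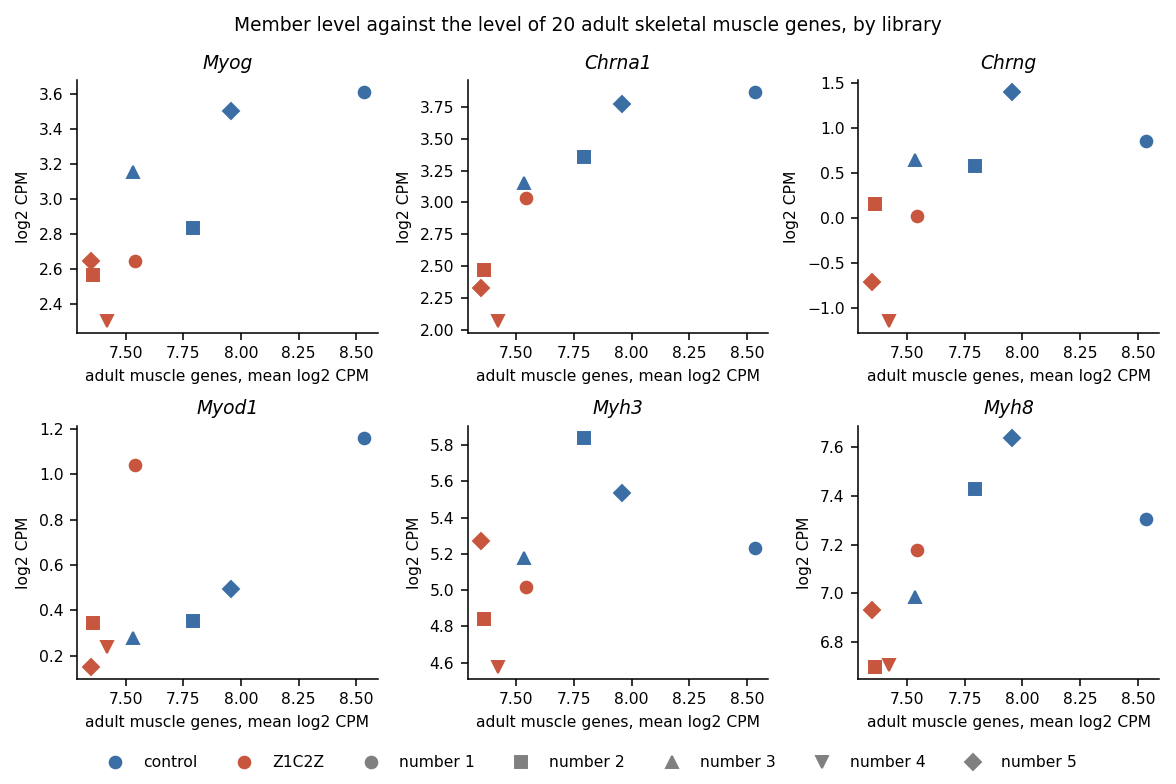
Log2 CPM of 6 of the 10 genes (vertical axes) against the mean log2 CPM of the 20 adult skeletal muscle genes (horizontal axes) in the 4 control (blue) and 4 Z1C2Z (red) libraries, with marker shapes giving the library number. The control libraries extend to 8.53 on the horizontal axis, in control-1, and the Z1C2Z libraries lie between 7.35 and 7.54, where control-3 at 7.53 is the nearest control library.

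With the adult muscle level of each library as a covariate in edgeR, 0 of the 10 genes and 0 of all genes were called (3345 of all genes had an unadjusted p under 0.05), and the median log2 fold change of the 10 was −0.41. Chrng was at −1.07 and Chrna1 at −0.58 in that fit, and Myod1 at 0.48. Control-3 and Z1C2Z-1 had nearly the same adult muscle level, at 7.53 and 7.54. Between these 2 libraries Chrna1 was at 8.87 and 8.21 CPM, Chrng at 1.57 and 1.02 CPM and Myog at 8.90 and 6.26 CPM, while Myf6 was at 6.69 and 7.05 CPM, Myh8 at 127 and 145 CPM and Myod1 at 1.21 and 2.06 CPM. These are single libraries set side by side, with no test.

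Of the other cell types, the hair follicle genes moved with the groups. Of 9 hair follicle genes, 8 were called higher and 0 lower by edgeR, against 4.28% and 3.85% of all tested genes. Their median log2 fold change was 2.62. Their summed level was 567 to 3541 CPM in the control group and 4320 to 15266 CPM in the Z1C2Z group, highest in Z1C2Z-2. Of 5 neutrophil genes 0 were called by edgeR, with 3 of 5 at an unadjusted p under 0.05 (28.0% of all tested genes) and a median of −1.19, and their summed levels overlapped, at 572 to 1497 against 167 to 655 CPM. Of 5 smooth muscle genes, Cnn1 and Actg2 were called lower and 0 were called higher, against 3.85% and 4.28% of all tested genes. The summed levels of the 5 overlapped, at 134 to 201 against 126 to 159 CPM. All 5 Schwann cell genes had log2 fold changes over 0, with a median of 0.48 and 0 called by edgeR, 3 of 5 at an unadjusted p under 0.05, and overlapping summed levels of 51.0 to 95.4 against 76.6 to 106 CPM. No gene of these lists was at 0 in every library. With the hair follicle level as a covariate, a choice made after seeing the data, 0 of the 10 genes were called and their median was −0.27, with Chrng at −0.90 and Myf6 at 0.12. The part of these other cell types in the lower muscle genes was not tested beyond these fits.

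**Figure D4:**
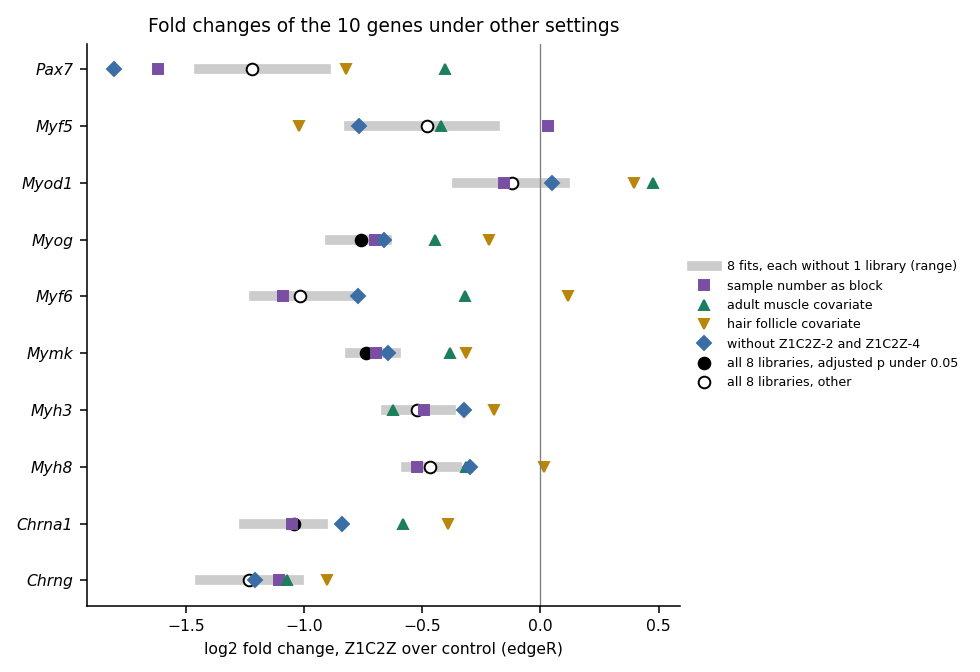
Log2 fold change (horizontal axis, edgeR) of each of the 10 genes with all 8 libraries (circles, filled where the adjusted p was under 0.05), over the 8 fits that left out 1 library each (grey bars, lowest to highest), and with a block or covariate or without Z1C2Z-2 and Z1C2Z-4 (coloured symbols). Chrna1, Chrng, Myog, Mymk, Myh3 and Pax7 stay below 0 in all of these fits, and Myod1 lies on both sides, from −0.35 to 0.48.

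Across the 8 libraries the mean standardised level of the 10 genes was highest in control-1, at 1.21, followed by control-5 at 0.75, and lowest in Z1C2Z-4, at −1.13. Every control library was above every Z1C2Z library on this mean, with control-3 at 0.12 and Z1C2Z-1 at −0.22 nearest to each other. The 5 tested genes outside the 10 whose log2 level followed this mean most closely were Smyd1, with a Pearson r of 0.991 over 8 libraries, Trim55 (0.991), Yipf7 (0.988), Cavin4 (0.979) and Mapk8 (0.978). Smyd1, Trim55 and Cavin4 are muscle genes, and Mapk8 is a kinase made by most cells. These values describe the libraries, which share the difference between the groups.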

How the data were processed

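Wound skin was sequenced in 8 samples, 4 control and 4 Z1C2Z. Per the labels, ribosomal RNA was depleted and dUTP was used in the second strand; they name Trizol, and the methods the RNA Easy Fast kit. The authors deposited raw read counts per gene, without normalisation, for 18540 genes with added annotation. The aligner, counting program, build and strand setting are not given in the sources used here. No column of sample values was left unused.

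The titles gave the groups, and their numbers are those of the samples in the paper's heat map. The test was run by edgeR 4.0.16 under R 4.3.3 (filterByExpr with a minimum count of 10, TMM, quasi-likelihood test, Benjamini-Hochberg adjustment over 15147 genes, threshold 0.05). No gene name was missing. Single genes were also compared by exact two-sided permutation of their log2 CPM (prior count 2). Levels relative to adult muscle used log2(CPM + 0.1). The steps were tested on simulated counts. At 28856790 to 38974888 counts per library, genes with 10 or fewer counts have a large counting error. No libraries were near-duplicates: the smallest chi-square per degree of freedom between any 2 of the 8 libraries was 21.7.

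Besides the 10 genes, the text names the called genes of each list and up to 4 more of its most abundant, the 4 most abundant adult muscle genes, and the 5 genes closest to the mean of the 10. Chrne, Cnn1 and Actg2 were named after their values were seen, and 1 gene that the rule selects is not reported here. Genes and lists were chosen with earlier results of these data known. Alternatives were DESeq2 1.42.0, RLE factors, other filters, a replicate block, an adult muscle covariate and each library left out; a hair follicle covariate and leaving out Z1C2Z-2 with Z1C2Z-4 were added after seeing the data.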

Additional observations from a re-analysis of the deposited data

Results flagged for a closer look

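Myod1 in the Z1C2Z group had 1 library far from the others. It stood at 2.06 CPM in Z1C2Z-1, while the other 3 libraries of the group lay between 1.11 and 1.27 CPM, so the gap took 0.831 of the group's range, just above Dixon's critical value for 4 samples. The highest control library for Myod1 also carried the number 1. Of the 20 groups examined, 10 genes in 2 groups, 1 was marked in this way, and chance marks about 1 in 20.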

How the results depend on the processing

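With DESeq2 in place of edgeR, 7 of the 10 genes, 1206 genes in the higher and 1539 in the lower direction were called, against 3, 648 and 583. RLE factors, no low-count filter and at least 10 counts in every library gave 2 or 3 of the 10 and kept the counts over all genes within 1.5 times. With a replicate block the calls were 2, 301 and 253: Myog and Mymk were lost (edgeR adjusted p of 0.174 and 0.185), Myf6 was gained (0.0356), and Myf5 turned to 0.030. Whether the numbers pair the libraries is not known. Same-numbered libraries had correlations of −0.10, −0.06 and 0.32 in their deviations from the group means, which cannot show whether they share a mouse. Not every library correlated best with its own number, and control-3 and Z1C2Z-4 have no partner in the block. The paired fit therefore stands as a description only. The adult muscle covariate left 0, 0 and 0 calls and turned Myod1 to 0.48. Leaving out Z1C2Z-2 and Z1C2Z-4 together left 0, 0 and 0 (1980 genes at an unadjusted p under 0.05) and turned Myod1 to 0.051. The hair follicle covariate left 0, 0 and 1 (659 unadjusted) and turned Myod1 to 0.40, Myf6 to 0.12 and Myh8 to 0.015. Leaving out 1 library gave 0 to 2 of the 10, 0 to 886 higher and 0 to 868 lower, and Myod1 ranged from −0.35 to 0.11. Relative to the adult genes, leaving out 1 library moved Myf5 from −0.10 to 0.60, Myh3 from −0.25 to 0.20 and Myh8 from −0.13 to 0.17. Myod1 no longer passed without any 1 of the control libraries or Z1C2Z-1, although its groups stayed apart. It still passed without Z1C2Z-2, Z1C2Z-4 or Z1C2Z-5 (exact permutation p = 0.0286 each). Chrna1 passed without Z1C2Z-1 (−0.65, exact permutation p = 0.0286). The causes were not tested. Depth limits Pax7, Myf5 and Chrne most.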
